A study of Mus musculus with 10 samples.

Results

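The genes of the lysosome's acid hydrolases, of its limiting membrane and of its proton pump were examined in mouse corneal endothelium with and without Slc4a11, a solute carrier of the corneal endothelial cell. The 53 genes were chosen by name, out of 55450 genes in the count table, and comprised 26 hydrolases, 3 soluble proteins of the lumen that are not enzymes, 9 membrane proteins and 15 genes of the proton pump. All 53 were found, and all 53 had enough counts to be tested among 17729 genes.

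Poly(A) RNA was sequenced from corneal endothelium peeled from C57BL/6 mice aged 12 weeks. Wild-type animals (Slc4a11+/+, WT) gave 5 libraries and animals that carried no functional copy of Slc4a11 (Slc4a11-/-, KO) gave 5. Each library was made from a pool of 6 peelings from 3 animals, and p-values therefore measure the spread between pools. Library totals ran from 36026193 to 51008996 counts. Slc4a11 itself, the check of the labels, had a mean of 3791 ± 362 counts per 1000000 counts (CPM; SD, n = 5) in WT against 95.4 ± 16.2 CPM in KO, with no overlap between libraries.

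Peelings are mixed tissue, and markers of several cell types were measured. The 9 corneal endothelial markers other than Slc4a11 summed to 12949 to 14796 CPM in WT and 11855 to 15180.0 CPM in KO, and keratocyte markers to 72105 to 101939 CPM in WT and 75944 to 95336 CPM in KO. Of these, 1 endothelial marker, Atp1b1, fell (-0.32, edgeR adjusted p 0.016). Slc4a4 did not pass (-0.31, edgeR adjusted p 0.070), though every KO library was below every WT library. Of the 10 endothelial markers, Slc4a11 included, 4 were lower and 0 higher at an unadjusted p under 0.05. DESeq2 also called 4 lower and 0 higher, and limma-voom 2 lower and 0 higher. Of the 12 keratocyte markers 2 fell and 0 rose in edgeR, with 9 of 12 negative. Those that fell were Kera (-0.48, edgeR adjusted p 0.030) and Ptgds (-0.83, edgeR adjusted p 0.040). Fmod (0.46) and Aldh3a1 (0.29) were the 2 keratocyte markers higher at an unadjusted p under 0.05, where 3 were lower. DESeq2 called 2 of the 12 higher and 2 lower, and limma-voom 0 higher and 2 lower. Epithelial markers differed most: their sum was 30.7 to 198 CPM in WT, 38.3 CPM in KO 3, 235 CPM in KO 4 and between 615 and 4278 CPM in the other KO libraries, and 11 of 14 rose by edgeR's quasi-likelihood test with Benjamini-Hochberg adjustment, 14 in DESeq2 and 2 in limma-voom. The Schwann cell markers summed to 59.0 to 66.6 CPM in WT and 81.0 to 115 CPM in KO, with 5 of 7 higher in the same test. Macrophages are rich in lysosomes; their 16 markers summed to 333 to 499 CPM in WT and 412 to 611 CPM in KO, and none passed in edgeR (4 were higher at an unadjusted p under 0.05, 2 were higher in DESeq2 and none passed in limma-voom). Of the 9 pigment cell markers 4 were tested and none passed (2 were higher at an unadjusted p under 0.05, none in DESeq2 or limma-voom). Their sums, mostly Gpnmb (-0.20), were 116 to 176 CPM in WT and 118 to 154 CPM in KO, and 3 of the 4 were positive. Of the 6 vessel markers tested 1 rose and 1 fell in edgeR, and 5 were positive (median 0.92). At an unadjusted p under 0.05 4 were higher and 1 lower, and DESeq2 called 3 higher and 1 lower. Vessel sums were mostly Kdr, the marker that fell (-0.52), and were 117 to 153 CPM in WT and 91.0 to 118 CPM in KO. No marker was at 0 in every WT library. Fewer cells of a type and less RNA per cell cannot be told apart in these bulk samples, and the part that cell types played in the results for lysosomal genes was not tested.

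The lysosome is an acidic compartment in which proteases, glycosidases, sulfatases and lipases break down material delivered by endocytosis and autophagy. A vacuolar ATPase, built from a membrane sector (V0) that conducts protons and a cytosolic sector (V1) that hydrolyses ATP, acidifies it, while heavily glycosylated membrane proteins line its wall and channels and transporters carry the products out. Many of these genes have in their promoters a short element bound by TFEB and related factors, which raise lysosomal gene expression when lysosomes are under load.

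The promoter windows of these genes were searched for that element, since it is the sequence that many of them are known to share. Windows of 300 bases (250 before and 50 from the start) were taken from RefSeq on GRCm38.p6, and 43 of the 53 genes had one. These RefSeq starts can differ from the gene positions given below, which are those of GENCODE. The windows of Scarb2 and Atp6v0e, for example, lay inside the GENCODE gene. The element's core, CACGTG, is its own reverse complement, so 1 search reads both strands, and it was in the window of 17 of the 43 genes (39.5%), beside 11.3% of 11542 tested genes and 8.09% of all 27025 genes with a window. The longer form TCACGTGA, which contains the core and is also its own reverse complement, was in 8 of the 43 (18.6%), beside 2.04% and 1.12%. By class the core was in 10 of 22 hydrolases, 0 of 3 soluble proteins that are not enzymes, 3 of 7 membrane proteins and 4 of 11 pump genes. A match is a run of letters, not a measured site of binding. The 250 bases before the start are given for 2 membrane genes with matches, Lamp1 (chr8:13158911-13159160, plus strand) and Mcoln1 (chr8:3500269-3500518, plus strand), and for the 2 genes with the clearest falls in KO, Scarb2 (chr5:92505658-92505907, minus strand) and Lipa (chr19:34527475-34527724, minus strand), each 5′ to 3′ on the gene's strand, with every CACGTG in capitals.
Lamp1: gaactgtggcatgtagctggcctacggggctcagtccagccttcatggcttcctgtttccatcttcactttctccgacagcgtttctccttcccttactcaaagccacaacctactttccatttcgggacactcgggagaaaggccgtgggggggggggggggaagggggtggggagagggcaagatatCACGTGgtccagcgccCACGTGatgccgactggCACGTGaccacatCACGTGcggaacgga
Mcoln1: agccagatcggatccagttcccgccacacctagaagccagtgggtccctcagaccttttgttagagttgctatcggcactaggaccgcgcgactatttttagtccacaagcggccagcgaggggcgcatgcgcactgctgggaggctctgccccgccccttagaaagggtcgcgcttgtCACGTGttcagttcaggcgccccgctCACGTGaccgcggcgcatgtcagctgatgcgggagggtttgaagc
Scarb2: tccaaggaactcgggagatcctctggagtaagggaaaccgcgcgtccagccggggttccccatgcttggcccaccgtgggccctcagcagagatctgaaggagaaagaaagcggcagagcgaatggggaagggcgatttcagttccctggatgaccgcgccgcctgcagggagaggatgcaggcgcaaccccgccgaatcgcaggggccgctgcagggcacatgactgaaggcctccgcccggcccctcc
Lipa: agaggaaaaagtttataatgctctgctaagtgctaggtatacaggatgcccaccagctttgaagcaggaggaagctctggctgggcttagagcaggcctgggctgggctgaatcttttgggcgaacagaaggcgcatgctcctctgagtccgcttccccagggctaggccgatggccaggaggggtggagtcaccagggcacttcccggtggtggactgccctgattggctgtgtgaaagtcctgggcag
Lamp1 had the core at 61, 45, 28 and 15 bases before its start, and Mcoln1 at 71 and 45. The windows printed for Scarb2 and Lipa held none of these letters, which says nothing of any factor. Of the genes with a window, the core was in 1 of 6 that fell in KO (Naglu, 73 bases before the start), in 1 of 2 that rose (Atp6v0e, 3 bases after the start, in the longer form) and in 15 of 35 that did not pass.

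Per length, the most abundant of the 53 transcripts was Laptm4a, a small lysosomal membrane protein, at 2314 ± 157 transcripts per 1000000 transcripts (TPM; SD, n = 5) in WT and 2629 ± 129 TPM in KO. It was followed by Psap (1416 ± 137 TPM in WT, 1362 ± 73.1 TPM in KO), the precursor of the saposins that help lipid hydrolases reach their substrates, and by the aspartic protease Ctsd (1191 ± 126 and 1218 ± 24.4 TPM) and the structural glycoprotein Lamp1 (1114 ± 87.7 and 1089 ± 30.3 TPM). In WT Ctsd and Lamp1 differed by less than their SDs. The least abundant were the membrane proteins Cln3, Npc1 (a cholesterol transporter) and Mcoln1 (a cation channel) and the glycosidases Idua and Gla, at 9.47 to 15.1 TPM in WT. The TPM of the 26 hydrolases summed to 5419.6 ± 493 in WT and 5549.8 ± 164 in KO, that of the 9 membrane proteins to 4412 ± 319 and 4652 ± 158, and that of the 15 pump genes to 1709 ± 83.5 and 1774 ± 100.2. The ranges of WT and KO overlapped for each of these sums, and the hydrolase sum was 3.17 ± 0.157 times the pump sum in WT and 3.13 ± 0.125 times in KO.

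**Figure D1:**
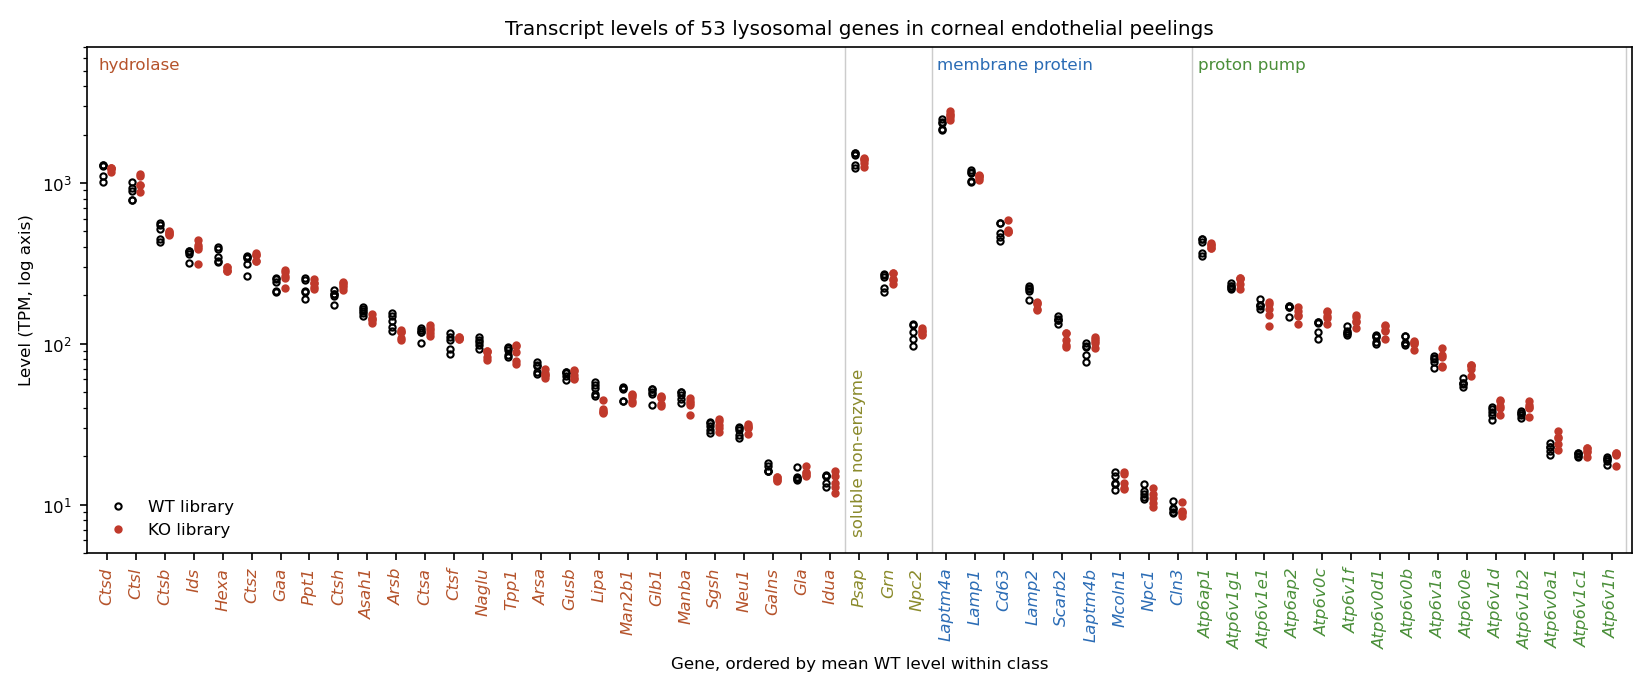
Level of each of the 53 genes in each library, in TPM on a log axis, with genes ordered by mean WT level within their class. Open circles are the 5 WT libraries and filled circles the 5 KO libraries; levels run from about those of Cln3 (9.47 TPM in WT) to Laptm4a (2314 TPM in WT), and most genes have overlapping WT and KO libraries.

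Of the 53 genes 2 rose and 7 fell in KO in edgeR at an adjusted p under 0.05. They are 17.0% of the 53, a share near the 15.3% of all genes tested. The share that rose was 3.77% beside 7.59%, and the share that fell 13.2% beside 7.73%. The median log2 fold change, KO minus WT, was 0.03 over the 53 genes and 0.00 over all genes, with 29 positive and 24 negative. With the mean log2 CPM of the epithelial markers as a covariate in edgeR, 2 genes fell and 0 rose. Those that fell were Scarb2 and Lipa (3.77% of the 53 beside 3.75% of all genes), and of all genes 3.09% rose. At an unadjusted p under 0.05 that fit had 9 of the 53 lower, beside 2017 of 17729 genes (11.4%). It had 5 of the 53 higher, beside 1766 of 17729 (9.96%). For 8 genes (15.1%, beside 12.0% of all genes) every library of one genotype lay above every library of the other, 4 of them higher in KO (beside 5.88% of all genes) and 4 lower (beside 6.16%).

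The falls were hydrolases and membrane proteins and the rises were pump subunits. Of all genes, 15.4% were higher and 15.7% lower at an unadjusted p under 0.05, against which the counts of each class at that p are to be read. DESeq2 called 9.76% of all genes higher and 10.4% lower, and limma-voom 6.27% and 7.22%. Of the 26 hydrolases 5 fell and 0 rose in edgeR (median -0.02), where 6 were lower and 1 higher at an unadjusted p under 0.05, DESeq2 called 6 lower and 1 higher, and limma-voom 4 lower and 0 higher. Of the 9 membrane proteins 2 fell and 0 rose (median -0.03), with 2 lower and 2 higher at an unadjusted p under 0.05, 2 lower and 1 higher in DESeq2, and 2 lower and 0 higher in limma-voom. Of the 15 pump genes 2 rose and 0 fell (median 0.09, with 11 of 15 positive), where 6 were higher and 0 lower at an unadjusted p under 0.05, 3 were higher and 0 lower in DESeq2 and 2 were higher and 0 lower in limma-voom. Whether the classes differ from one another was not tested, since genes are not replicates. The 44 genes that did not pass had log2 fold changes between -0.17 and 0.23, with 95% intervals that lay within -0.34 to 0.41, which does not show that they were equal.

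**Figure D2:**
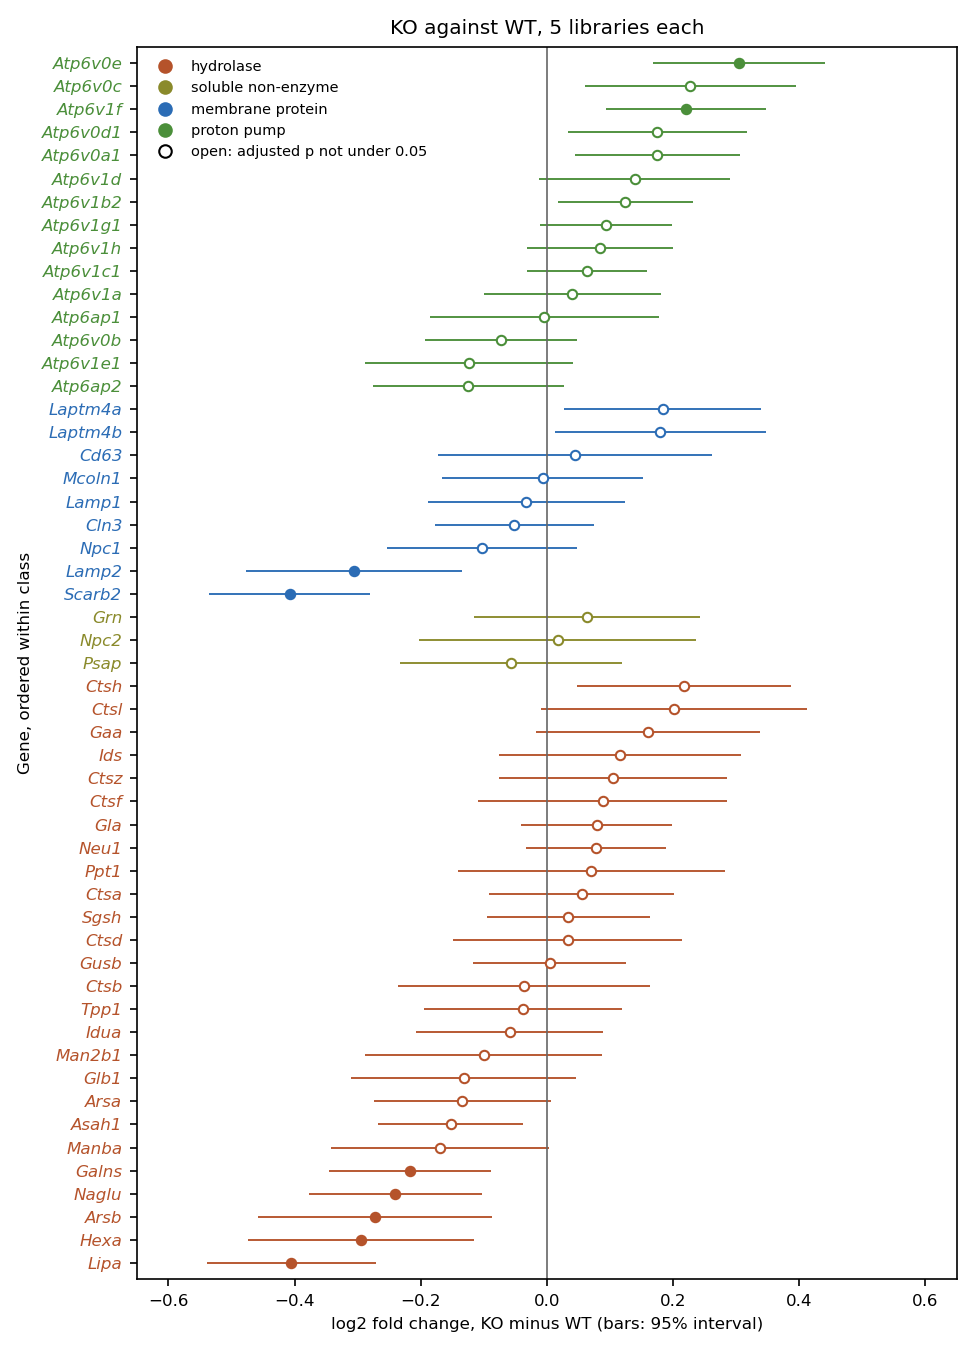
Log2 fold change, KO minus WT, of each of the 53 genes with its 95% interval, ordered within class. Filled points have an adjusted p under 0.05 in edgeR: 2 pump subunits to the right of 0, and 2 membrane proteins and 5 hydrolases to the left.

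Among the hydrolases, Lipa fell. It encodes lysosomal acid lipase, which hydrolyses cholesteryl esters and triglycerides, and lies on chromosome 19 (GRCm38, 34492318-34527474, minus strand). It stood at 115, 108, 119, 129.9 and 128 CPM in WT 1 to WT 5 and at 92.0, 91.6, 95.9, 84.8 and 88.9 CPM in KO 1 to KO 5. Every KO library was below every WT library. The means were 120.0 ± 9.10 and 90.6 ± 4.12 CPM, 24.5% lower in KO, a log2 fold change of -0.41 (SE 0.06) with an edgeR adjusted p of 0.0013. Of the other 2 lipid hydrolases neither passed: Asah1, the acid ceramidase, had -0.15 (SE 0.05, edgeR adjusted p 0.071), and Ppt1, a thioesterase, 0.07.

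Of the 10 glycosidases 2 fell. Naglu, which removes N-acetylglucosamine from heparan sulfate (chromosome 11, 101070012-101077672, plus strand), stood at 95.7, 88.4, 81.3, 101 and 92.2 CPM in WT and at 80.9, 80.4, 75.8, 78.4 and 72.7 CPM in KO. The groups did not overlap, though WT 3 was only just above KO 1. Its log2 fold change was -0.24 (SE 0.06, edgeR adjusted p 0.024). Hexa, the alpha subunit of beta-hexosaminidase, which degrades GM2 ganglioside (chromosome 9, 59539540-59565109, plus strand), stood at 243, 218, 216, 275 and 255 CPM in WT and at 194, 219.6, 177, 186 and 207 CPM in KO. KO 2 was above WT 2 and WT 3, so the groups overlapped, and the log2 fold change was -0.29 (SE 0.08, edgeR adjusted p 0.032). No other glycosidase passed, among them Gaa, the glycogen-degrading alpha-glucosidase (0.16, edgeR adjusted p 0.20), and Manba, a beta-mannosidase (-0.17, edgeR adjusted p 0.17). Hexa, Arsb, Lamp2 and Atp6v1f are described because they passed the test, a choice made after their values were seen.

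Of the 5 sulfatases 2 fell, both of them acting on glycosaminoglycans. Galns (chromosome 8, 122578242-122611463, minus strand) stood at 14.9, 14.5, 14.2, 15.8 and 15.8 CPM in WT and at 13.4, 13.7, 12.4, 12.4 and 12.9 CPM in KO, with no overlap and a log2 fold change of -0.22 (SE 0.06, edgeR adjusted p 0.028). Its value is uncertain, since Gm20388 (246 CPM in WT, 248 CPM in KO) overlaps it on the opposite strand and whether reads were counted by strand is unknown here. Arsb, which encodes arylsulfatase B (chromosome 13, 93771630-93943016, plus strand), stood at 291, 246, 254, 325 and 295 CPM in WT and at 245, 259, 230.0, 212 and 221 CPM in KO. KO 2 was above WT 2 and WT 3, and the fall of -0.27 (SE 0.09) had an edgeR adjusted p of 0.0498, at the edge of the threshold. Removal of WT 4 or WT 5 left 1 hydrolase that fell (Lipa) in place of 5. Among all genes those that fell then numbered 1144 without WT 4 and 965 without WT 5, in place of 1370. Ids, which removes sulfate from iduronate, did not pass (0.12, edgeR adjusted p 0.40).

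None of the 8 proteases passed in edgeR, and 6 of 8 had positive values. At an unadjusted p under 0.05 1 was higher, and DESeq2 called 1 higher and limma-voom none. Ctsd stood at 1056, 872, 790.2, 1042 and 978 CPM in WT and 987, 1006, 908, 945 and 1001 CPM in KO, a log2 fold change of 0.03 (SE 0.08, edgeR adjusted p 0.83). Ctsl, a cysteine cathepsin, stood at 2099.9, 1724, 1675, 2279 and 1905 CPM in WT and 2177, 2091, 2255, 2055 and 2553 CPM in KO (0.20, SE 0.10, edgeR adjusted p 0.18). The cysteine cathepsin Ctsb stood at 1153, 915, 858, 1180.3 and 1032 CPM in WT and 989.6, 1074, 956, 950.2 and 1041 CPM in KO (-0.04, SE 0.09, edgeR adjusted p 0.83). In all 3 the groups overlapped, and for Ctsd and Ctsb the KO libraries lay within the range of the WT libraries. Ctsh, an aminopeptidase, had the most positive value of the proteases (0.22, SE 0.08, edgeR adjusted p 0.080). Ctsd overlaps Gm49369 on the same strand and Ctsb overlaps Fdft1 on the opposite strand, which makes their values uncertain.

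Scarb2 and Lamp2 were the membrane proteins that fell. Scarb2 encodes LIMP-2, which carries beta-glucocerebrosidase to the lysosome (chromosome 5, 92441314-92506833, minus strand), and stood at 325, 282, 293, 310.3 and 289.8 CPM in WT and at 228, 225, 229, 239 and 209 CPM in KO. The highest KO library was below the lowest WT library. The means of 299.9 ± 17.3 and 226 ± 10.7 CPM, 24.6% lower in KO, gave a log2 fold change of -0.41 (SE 0.06, edgeR adjusted p 0.00089). Lamp2, a structural glycoprotein that also takes part in autophagy (chromosome X, 38401357-38456454, minus strand), stood at 731, 601, 669, 757 and 695 CPM in WT and at 595, 619.6, 526, 515 and 536 CPM in KO. WT 2 was the exception, below KO 2, and the log2 fold change was -0.31 (SE 0.08, edgeR adjusted p 0.022).

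The other 7 membrane proteins did not pass. Lamp1, the close relative of Lamp2, stood at 1083, 930.4, 894, 1107 and 1027 CPM in WT and 1012, 1014, 941, 942 and 1018 CPM in KO (-0.03, SE 0.07, edgeR adjusted p 0.80), with every KO library inside the WT range. The tetraspanin Cd63 stood at 722, 575, 532, 714 and 593 CPM in WT and 629, 674, 591, 593 and 748 CPM in KO (0.04, SE 0.10, edgeR adjusted p 0.80). Laptm4a stood at 1547, 1298, 1253, 1451 and 1394 CPM in WT and 1705, 1591, 1492, 1527 and 1568 CPM in KO, where only WT 1 reached the KO range (0.18, SE 0.07, edgeR adjusted p 0.11). Its paralog Laptm4b had the same log2 fold change (0.18, SE 0.08, edgeR adjusted p 0.13) at a lower level, 91.1 ± 9.63 TPM in WT and 103 ± 6.20 TPM in KO. The values of Mcoln1 and Npc1 were -0.01 and -0.10 (edgeR adjusted p 0.96 and 0.33). None of the 3 soluble proteins that are not enzymes passed in edgeR, at an unadjusted p under 0.05, in DESeq2 or in limma-voom: Psap had -0.06, Npc2, which hands cholesterol to Npc1, 0.02, and Grn, the progranulin precursor, 0.06.

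In the proton pump, Atp6v0e and Atp6v1f rose. Atp6v0e, a small subunit of V0 (chromosome 17, 26663231-26699647, plus strand), stood at 79.8, 70.2, 66.1, 72.7 and 69.4 CPM in WT and at 93.4, 85.9, 80.8, 89.1 and 93.1 CPM in KO. The groups did not overlap, with WT 1 just below KO 3. The means were 71.6 ± 5.13 and 88.4 ± 5.30 CPM, 23.5% higher in KO, a log2 fold change of 0.30 (SE 0.06, edgeR adjusted p 0.0074). Atp6v1f, subunit F of V1 (chromosome 6, 29467718-29470512, plus strand), stood at 48.0, 41.8, 39.8, 42.8 and 42.1 CPM in WT and at 50.4, 48.3, 50.1, 47.3 and 53.7 CPM in KO (0.22, SE 0.06, edgeR adjusted p 0.025). WT 1 was above KO 4, and the other 4 WT libraries were below every KO library. With the epithelial covariate neither passed, at 0.23 for Atp6v0e (edgeR adjusted p 0.077) and 0.19 for Atp6v1f (edgeR adjusted p 0.16). Without WT 1 the number of pump genes that rose was 5, and that of all genes 1428 in place of 1346.

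**Figure D3:**
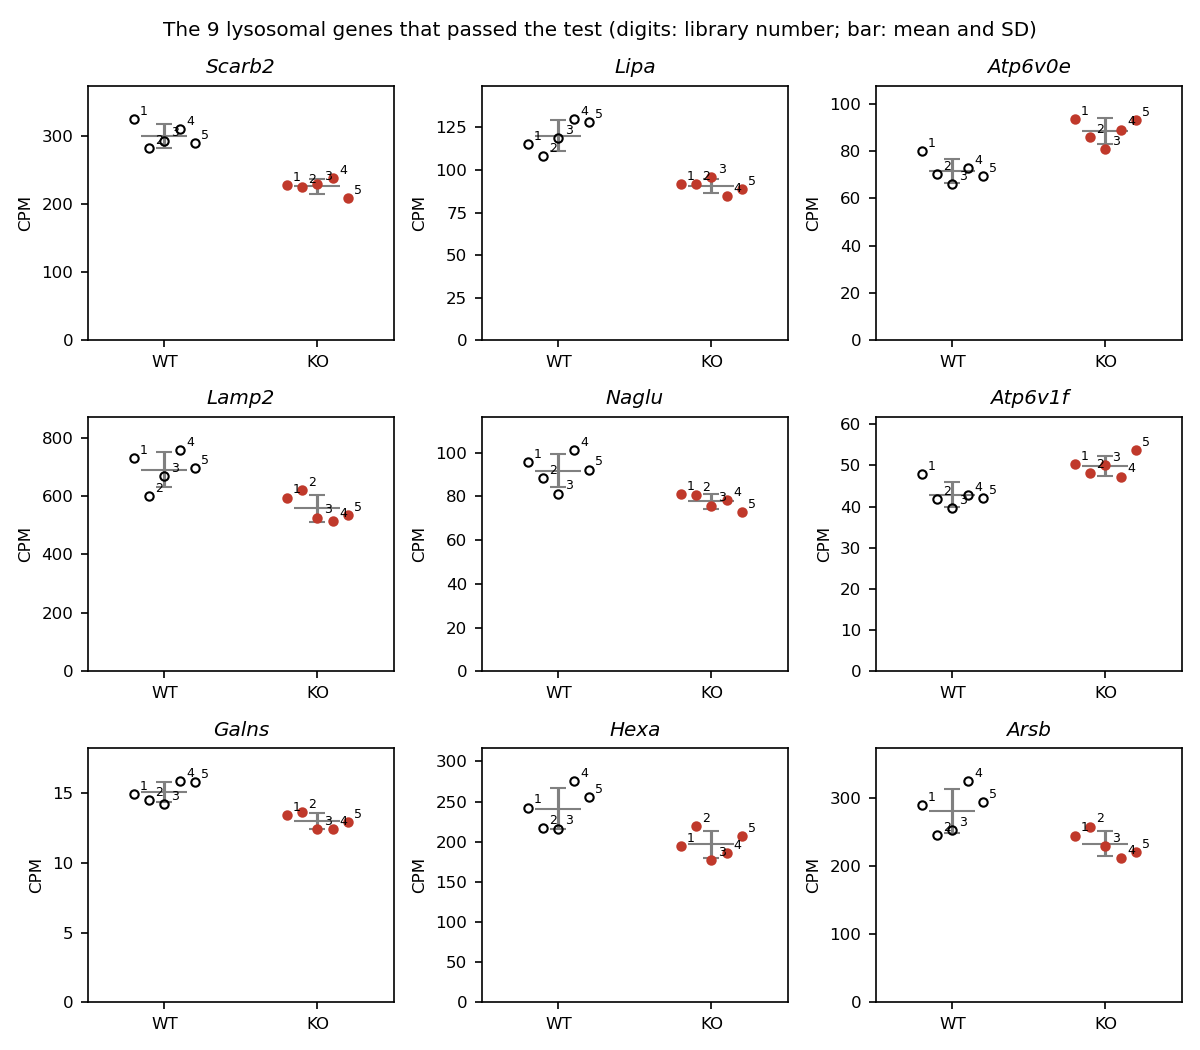
CPM in each library of the 9 genes that passed the test, with axes from 0, digits for the library number and bars for the mean and SD. WT and KO libraries are apart for Scarb2, Lipa, Atp6v0e, Naglu and Galns and overlap for Lamp2, Atp6v1f, Hexa and Arsb.

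In 3 more pump genes, which did not pass, the KO libraries were all above the WT libraries on the scale of TMM-scaled CPM, but not in TPM. Of the 8 genes without overlap in TMM-scaled CPM, 6 had none in CPM on library totals and 5 had none in TPM (Scarb2, Lipa, Naglu, Galns and Atp6v0e), a check added after the data were seen. The share of all genes without overlap was not computed in CPM on library totals or in TPM, so these counts have nothing beside them. Atp6v0c, the proteolipid of the V0 ring, stood at 161, 135, 120.5, 158 and 152 CPM in WT and 169, 164, 167, 176 and 173 CPM in KO (0.23, SE 0.08, edgeR adjusted p 0.065). Atp6v0a1, the V0 subunit that carries part of the proton path, stood at 52.2, 47.9, 44.4, 51.8 and 52.1 CPM in WT and 59.1, 52.2, 59.4, 55.9 and 54.0 CPM in KO (0.18, SE 0.06, edgeR adjusted p 0.070), with the highest WT and the lowest KO library equal as printed. Atp6v1c1, subunit C of V1, stood at 38.8, 39.1, 39.0, 38.7 and 38.7 CPM in WT and 43.4, 40.1, 39.3, 39.2 and 41.1 CPM in KO (0.06, SE 0.04, edgeR adjusted p 0.345). Its separation rested on a WT spread of well under 1 CPM and not on a large difference. The 3 most abundant pump genes did not pass: Atp6ap1, an accessory protein, at 409 ± 45.6 TPM in WT and 408 ± 11.6 TPM in KO, Atp6v1g1 at 228 ± 7.35 and 243 ± 15.9 TPM, and Atp6v1e1 at 175 ± 9.34 and 161 ± 21.2 TPM. Their log2 fold changes were -0.00 (SE 0.08), 0.09 (SE 0.05) and -0.12 (SE 0.08), and edgeR adjusted p 0.98, 0.205 and 0.29. By sector, 1 of 5 V0 genes rose (median 0.18), 1 of 8 V1 genes (median 0.09) and neither of the 2 accessory genes (median -0.06). The V0 genes summed to 419 ± 25.7 TPM in WT and 466 ± 28.5 TPM in KO, the V1 genes to 715 ± 27.0 and 747 ± 56.9 TPM and the accessory genes to 575 ± 41.5 and 560.3 ± 17.8 TPM.

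Within WT, the 53 genes tended to be high or low together. WT 1 or WT 4 was the highest WT library for 46 of the 53 (86.8%, beside 44.1% of all genes tested), and WT 3 the lowest for 36 (67.9%, beside 23.4%). WT 1 and WT 4 also had the highest sums of keratocyte markers (94086 and 101939 CPM, beside 72105 to 88835 CPM in the other WT libraries) and of macrophage markers (499 and 463 CPM, with 333 CPM in WT 3, the lowest), and the lowest of the WT libraries' normalization factors (0.966 and 0.950). With CPM on library totals alone, the 46 became 34 (64.2%, beside 30.6%) and the 36 became 32 (60.4%, beside 17.3%). The part of these values in the spread was not tested. The 53 genes had a median coefficient of variation of 8.17% in WT and 5.40% in KO, beside 10.6% and 11.05% over all genes. The values over all genes were not matched for level, and none of the 53 was below 12.4 CPM in any library.

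**Figure D4:**
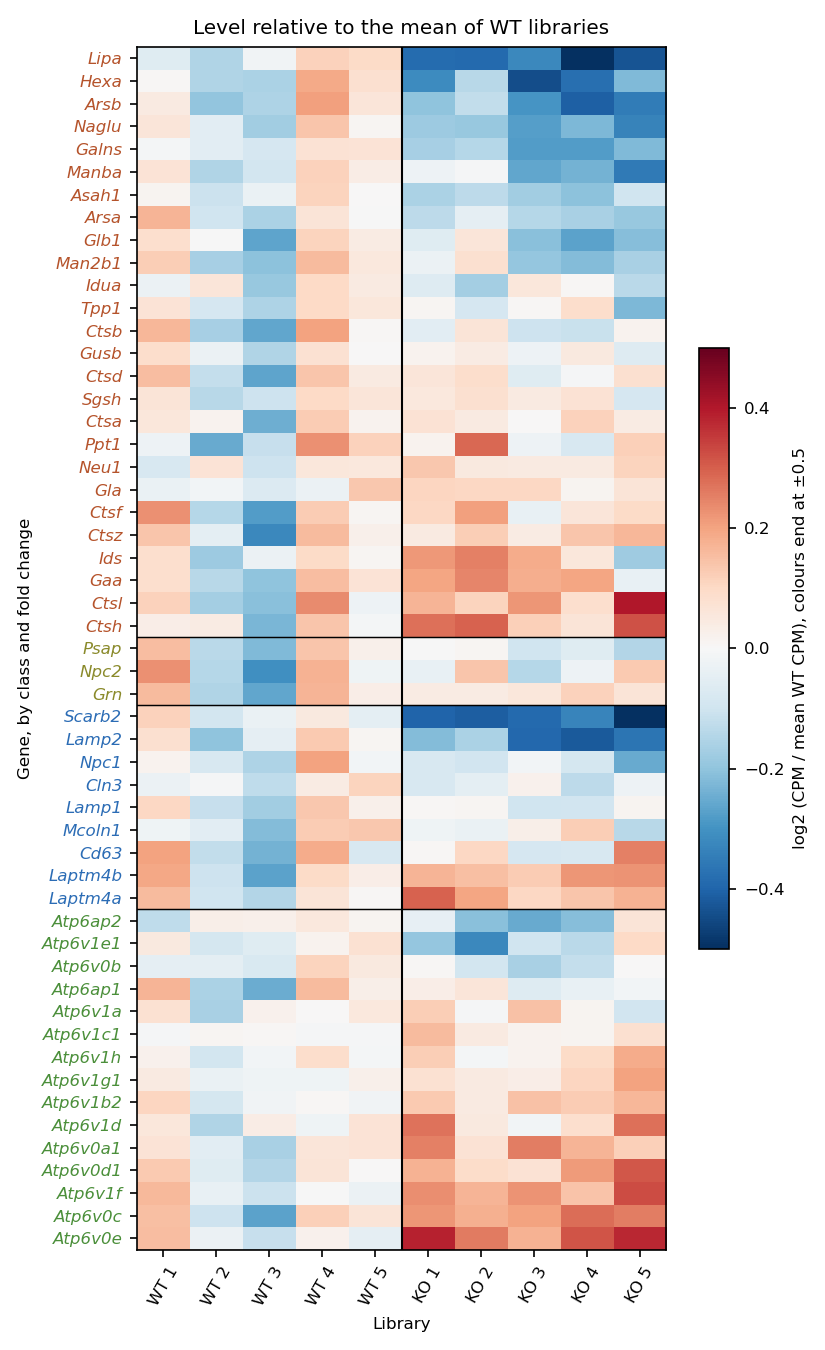
Level of each of the 53 genes in each library as log2 of CPM over the mean CPM of the WT libraries, with genes grouped by class and ordered by fold change, and colours ending at ±0.5. WT 1 and WT 4 are above the WT mean for 42 and 48 genes and WT 3 for 4, and the KO libraries stand low for Lipa and Scarb2 and high for Atp6v0e.

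The KO libraries differed in epithelial markers, so the comparison was repeated with just KO 3 and KO 4, whose epithelial sums were the lowest among the KO libraries. Of the 53 genes 2 then fell, beside 3.14% of all genes, and 0 rose, beside 2.86%. At an unadjusted p under 0.05 in edgeR 11 of the 53 were lower, beside 1951 of 18435 genes (10.6%), and 4 of the 53 higher, beside 1895 of 18435 (10.3%). The genes that fell were Lipa (-0.40, edgeR adjusted p 0.026) and Scarb2 (-0.35, edgeR adjusted p 0.034). Atp6v0e had 0.25 (edgeR adjusted p 0.11) and Lamp2 -0.40 (edgeR adjusted p 0.053), so their direction was as with all KO libraries, and fewer libraries entered the fit.

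Genes of the lysosome beyond the 53 also changed in both directions. Of 105 tested genes on 5 further lists 6 rose and 11 fell in edgeR (median -0.03), which is 16.2% beside 15.3% of all genes. With KO 3 and KO 4 as KO, 1 rose and 5 fell, and of the further hydrolases 0 rose and 3 fell. Of 28 further hydrolases 2 rose and 3 fell: Galc, which degrades galactosylceramide, fell from 24.5 ± 0.685 to 18.7 ± 0.780 CPM (-0.39, SE 0.05, adjusted p 0.00037), and the cathepsin Ctso from 109 to 115 CPM in WT to 84.3 to 97.0 CPM in KO (-0.31, SE 0.05, adjusted p 0.0028). The protease Ctsc, which activates granule proteases of leukocytes, rose from 14.0 ± 2.54 to 21.5 ± 4.38 CPM (0.62, SE 0.15, adjusted p 0.019). Ctsc stood at 22.7, 24.7 and 26.3 CPM in KO 1, KO 2 and KO 5, the libraries with the highest epithelial sums, and at 16.6 and 17.2 CPM in KO 3 and KO 4, close to the highest WT library (17.0 CPM). Acp5, an acid phosphatase of osteoclasts and macrophages, rose from 0.462 ± 0.184 to 1.53 ± 0.744 CPM (1.73, SE 0.34, adjusted p 0.0060). Of 23 further membrane proteins 2 rose and 0 fell in edgeR, with a median of 0.07 and 14 of 23 positive. At an unadjusted p under 0.05 4 were higher and 4 lower. DESeq2 called 3 higher and 1 lower, and limma-voom 2 higher and 0 lower. Those that rose in edgeR were the cysteine importer Mfsd12 (0.30, adjusted p 0.012) and the channel Tmem175 (0.19, adjusted p 0.037). Both values are uncertain, since Fzr1 overlaps Mfsd12 and Dgkq overlaps Tmem175 on the opposite strand.

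Of 11 further pump genes 1 rose and 1 fell in edgeR, with a median of -0.04 and 4 of 11 positive. At an unadjusted p under 0.05 2 were higher and 1 lower, as in DESeq2, and limma-voom called 1 higher and 1 lower. Rnasek, which is associated with the pump, rose (0.35, edgeR adjusted p 0.0061) and is uncertain because Gm21988 overlaps it on the same strand, and Ccdc115, an assembly factor of the pump, fell from 18.9 ± 2.44 to 14.0 ± 1.13 CPM (-0.43, edgeR adjusted p 0.0088). Of 22 genes for enzyme activation and delivery 2 fell and 0 rose in edgeR (1 higher at an unadjusted p under 0.05, none in DESeq2 or limma-voom): Gga2, an adaptor that sorts hydrolases at the Golgi (-0.31, adjusted p 0.0076), and Gnptg, a subunit of the enzyme that makes the mannose 6-phosphate tag (-0.15, adjusted p 0.043). The value of Gnptg is uncertain, since Unkl overlaps it on the opposite strand. Of 21 transcription factors and nutrient-sensing genes 1 rose and 5 fell. Rraga, a Rag GTPase of the lysosome surface, rose (0.22, adjusted p 0.011), and the folliculin partner Fnip1 (-0.43, adjusted p 0.0092) and the repressor Bhlhe40 (-0.68, adjusted p 0.017) fell. Tfeb had means of 13.2 ± 1.81 and 13.9 ± 0.911 CPM in WT and KO (0.08, edgeR adjusted p 0.61), and Tfe3 had 37.0 ± 1.28 and 41.0 ± 1.91 CPM (0.15, edgeR adjusted p 0.060). Tfeb and Tfe3 are given as factors that bind the element described above, not as the only ones.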

How the data were processed

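The deposited table holds whole-number counts per gene, which the authors made from stranded poly(A) libraries; per the submitters' processing notes, tools named are Trim Galore 0.6.4, cutadapt 2.4, HISAT2 2.1.0 and featureCounts of Subread 1.6.4, on GRCm38.p6. Not given in the sources used here were the annotation release, the strand setting and the treatment of multi-mapping reads. Groups came from the labels. Symbols, positions and exon lengths came from GENCODE M21, and all 55450 identifiers matched.

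Genes were filtered with filterByExpr and tested with edgeR 4.0.16 (R 4.3.3; TMM normalization, quasi-likelihood, 5 WT against 5 KO libraries), with Benjamini-Hochberg adjustment over 17729 genes and a threshold of 0.05. CPM of single genes use TMM-scaled library sizes and marker sums the plain totals; TPM were computed from counts over exon length. DESeq2 1.42.0, limma-voom (limma 3.58.1) and 21 other planned settings were alternatives. The code was tested on simulated counts. The 53 genes and the lists were chosen with earlier results of these data known. Described in full are genes whose WT and KO libraries did not overlap, the 3 most abundant of each class, and on further lists the 2 called genes with the smallest p in each direction; exceptions are said to be so.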

Additional observations from a re-analysis of the deposited data

Results flagged for a closer look

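In 4 of 106 groups of 5 libraries (53 genes in WT and in KO) 1 library stood far from the others; chance gives about 1 in 20. Gla, the alpha-galactosidase, stood at 18.3 CPM in WT 5 and at 15.9 to 16.5 CPM in the other WT libraries. Gaa stood at 370.1 CPM in KO 5 and at 430.3 to 449.9 CPM in the other KO libraries. Sgsh, a sulfatase of heparan sulfate, stood at 43.0 CPM in KO 5 and at 46.9 to 48.0 CPM in the others. Atp6ap2, an accessory protein of the pump, stood at 134 CPM in WT 1 and at 148 to 153 CPM in the other WT libraries. None of these 4 genes passed the test between genotypes in edgeR.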

How the results depend on the processing

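Of the 9 genes called, Lipa and Scarb2 were called under all 24 alternatives, and no called gene changed direction under any of them. Atp6v0e was lost with an epithelial covariate and when KO 3 and KO 4 alone stood for KO. Of the 24, Arsb was lost under 15, Atp6v1f under 10, Hexa and Galns under 9 each, and Naglu and Lamp2 under 7 each. The alternative with KO 3 and KO 4 was chosen after seeing the data.

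Of the 53 genes, those that rose (2) numbered 6 with scaling to total counts, 5 in DESeq2, 1 with a replicate block, 0 with the epithelial covariate, 7 with a keratocyte covariate, 1 with a macrophage covariate, 0 with KO 3 and KO 4 alone and 1 at a threshold of 0.01. Those that fell (7) numbered 2 with the block, the epithelial covariate, KO 3 and KO 4 alone or the 0.01 threshold. Hydrolases that fell (5) numbered 3 with no filter on low counts and 1 with the block, the epithelial covariate, KO 3 and KO 4 or the 0.01 threshold; those that rose (0) numbered 1 with total counts, 1 in DESeq2 and 3 with the keratocyte covariate. Membrane proteins that fell (2) numbered 1 with the block, the epithelial covariate, KO 3 and KO 4 or the 0.01 threshold; those that rose (0) numbered 1 with total counts, DESeq2 or the keratocyte covariate. Pump genes that rose (2) numbered 4 with total counts, 1 with the block, 0 with the epithelial covariate, 1 with the macrophage covariate, 0 with KO 3 and KO 4 and 1 at 0.01. With total counts the median of all genes moved from 0.00 to 0.03, and 1555 genes rose and 1054 fell, against 1346 and 1370. Genes that rose and fell among all genes numbered 1730 and 1848 in DESeq2 and 1248 and 1233 with no filter. With the keratocyte covariate they numbered 1431 and 1606, and with the macrophage covariate 976 and 1132. With the block they numbered 750 and 941, with the epithelial covariate 548 and 664, and with KO 3 and KO 4 alone 527 and 578. Causes were not tested.

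With each library left out in turn, genes of the 53 that rose numbered 1 to 7 (7 without WT 1) and those that fell 2 to 7 (2 without WT 4 or WT 5, 3 without KO 4, 4 without KO 3). Hydrolases that fell numbered 1 to 5, membrane proteins that rose 0 to 2 and fell 1 to 2, and pump genes that rose 1 to 5 (5 without WT 1). Among all genes those that rose numbered 836 to 1532 (1428 without WT 1). Those that fell numbered 965 to 1666 (1144 without WT 4, 965 without WT 5, 1025 without KO 4, 1488 without KO 3).

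The labels do not say whether replicate numbers pair the samples. Deviations of same-numbered WT and KO libraries from their group means had correlations of 0.02, -0.07, -0.25, 0.09 and -0.42. These values cannot show how the pools were prepared. With the replicate block Atp6v0e rose and Scarb2 and Lipa fell.

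Uncalled genes changed sign about 0: Ctsd to -0.036 with the macrophage covariate and -0.027 with KO 3 and KO 4; Ctsb to 0.053 and Lamp1 to 0.026 with the keratocyte covariate; Cd63 to -0.038 (epithelial covariate), -0.056 (macrophage covariate) and -0.077 (KO 3 and KO 4); Atp6ap1 to 0.0069 (upper quartile factors), 0.0057 (epithelial covariate), 0.026 (total counts), 0.0041 (limma-voom), 0.0048 (replicate block) and 0.074 (keratocyte covariate). Leaving out 1 library gave -0.027 to 0.077 for Ctsd, -0.10 to 0.021 for Ctsb, -0.075 to 0.0055 for Lamp1, -0.011 to 0.10 for Cd63 and -0.061 to 0.043 for Atp6ap1. With 5 pools a genotype, the 95% intervals of genes that did not pass reached -0.34 to 0.41.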
